A study of Mus musculus with 4 samples.

Results

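The regions described here are stretches of the mouse autosomes in which a peak of methylated DNA was found in every library of the series. They were chosen by peak presence. The 4 deposited peak lists were merged, touching or overlapping peaks were joined into a union region, and a region was kept when a peak of each list fell in it. Of 301535 autosomal union regions, 65373 (21.7%) met this rule. They made up 21.3% of the 307174 union regions of all chromosomes.

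The assay was MeDIP-seq: an antibody against 5-methylcytosine pulls methylated fragments out of sheared DNA, and these are sequenced. All animals were ICR mice, an outbred strain. Founder males of the T2D group (a model of type 2 diabetes) ate a high-fat diet, with 33% of its energy as fat, up to 12 weeks of age. They then received a low dose of streptozotocin, a beta cell toxin, stayed on that diet for 4 weeks, and were kept in the group only at a fasting glucose of 7 to 11 mM. Control founders ate a control diet. Their mates ate standard diet throughout. The libraries were islets of 3-week-old offspring of T2D fathers, islets of 3-week-old offspring of control fathers, sperm of 16-week-old T2D founders and sperm of 16-week-old control founders. Each stood for 6 animals. Whether their DNA was pooled, and the sex of the offspring, are not stated. Sperm came from the caudal epididymis and passed through a somatic cell lysis step. The model joins diet and streptozotocin, so their parts cannot be told apart. Islets and sperm differ in tissue, age and generation at once, and possibly in depth and peak calling, which likewise cannot be told apart. Peak lists without gene annotation gave no check of the labelled tissues against marker genes.

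In mammals, 5-methylcytosine lies mainly at CpG dinucleotides, and most of the genome outside CpG islands is methylated in both somatic cells and sperm. The germ line loses and regains its methylation during development, and the embryo largely resets it after fertilisation, with imprinted loci and some repeats as known exceptions. MeDIP recovers a fragment more readily the more methylated CpGs it holds. Tag density therefore follows CpG density as well as methylation. CpG content was not examined here.

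The islet lists held 163824 autosomal peaks in the T2D and 164458 in the control library, with 8077079 and 8107950 tags (sequenced reads) in them. The sperm lists held 176823 and 175523 autosomal peaks, with 10972389 and 10992137 tags. Total library size is stated for sperm alone, at 34926725 tags in T2D and 34094381 in control. With 1 library per group no difference below has a replicate check, and no test was made. Intervals are 95% Wilson intervals and cover counting error only, and neighbouring regions and PCR copies are not independent.

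The regions held 40.3% of the autosomal peaks of each islet library, and 37.3% and 37.6% of those of T2D and control sperm. They took a larger share of the tags: 47.0% and 46.7% in T2D and control islets, and 46.5% and 47.0% in T2D and control sperm. Presence in all libraries went with the strength of a peak, which the rule itself favours. In the weakest 10% of a list by the caller's score, 19.34% and 19.03% of T2D and control islet peaks lay in such a region, and 14.4% and 13.9% of T2D and control sperm peaks. In the strongest 10% the shares were 68.3% and 69.9% in islets and 76.1% and 77.3% in sperm. They did not reach the whole list at the top. Among the strongest 1%, 1197 of 1638 T2D islet peaks (73.1%), 1211 of 1644 control islet peaks (73.7%), 1267 of 1768 T2D sperm peaks (71.7%) and 1295 of 1755 control sperm peaks (73.8%) were shared by all libraries.

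The regions were of modest width. The narrowest had 364 bp, the median 1389 bp and the widest 7099 bp, and 1448 of them exceeded 3 kb. In all they covered 100.4 Mb. A union region grows with the number of peaks merged into it, so its width is partly set by the rule: regions found in exactly 3 libraries had a median of 1223 bp, those in both islet libraries and no sperm library 1081 bp, and those in both sperm libraries and no islet library 1083 bp. The peaks themselves were wider too. Inside the regions a T2D islet peak had a median of 978 bp and a control islet peak 941 bp, against 852 bp and 822 bp for the other peaks of those lists. In T2D and control sperm the medians were 1110 bp and 1117 bp inside and 918 bp and 927 bp outside.

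Each region usually held 1 peak per library, which was so for 63237 regions (96.7%). The bases that all 4 libraries covered at once, here called the core, had a median of 750 bp and a median share of 55.6% of the region's width, with the middle 50% of regions between 44.3% and 66.9%. Over all regions the core came to 52.7 Mb. In 1310 regions (2.00%) there was no core at all, because peaks of different libraries were linked only through a further peak or lay side by side. Among regions with 1 peak per library, the summits of T2D and control peaks lay a median of 29 bp apart in islets and 27 bp in sperm. Between tissues the median was 32 bp in the T2D pair and 31 bp in the control pair. Summits lay within 100 bp of each other in 84.3% of regions for the islet libraries and 85.3% for the sperm libraries, against 80.6% for T2D islets and T2D sperm and 81.6% for control islets and control sperm. The point of highest signal was thus nearly as close between tissues as between conditions.

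**Figure D1:**
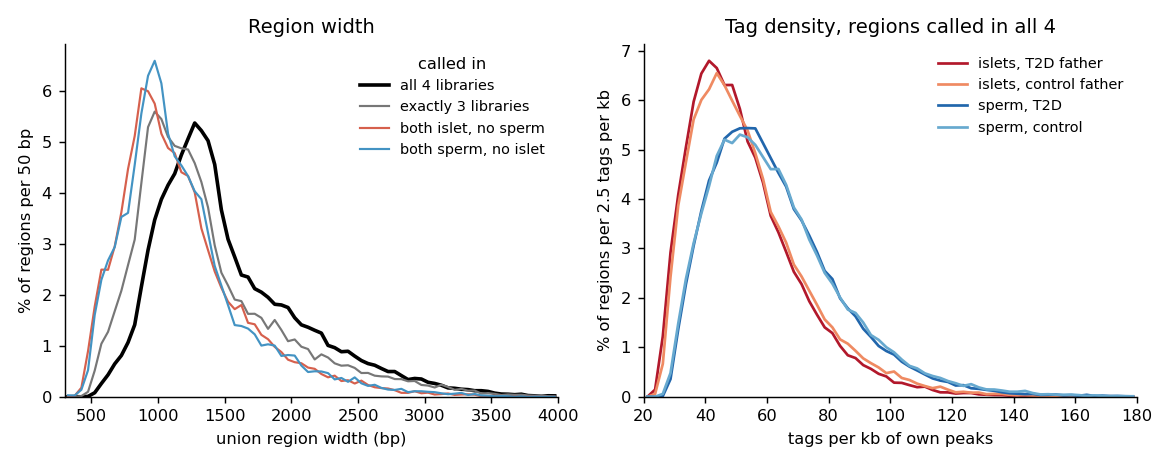
Left, share of union regions (y, % per 50 bp) by width (x, bp) for regions called in all 4 libraries, in exactly 3, in both islet libraries only and in both sperm libraries only; 78 regions of the first set wider than 4000 bp are not drawn. Right, share of the regions called in all 4 (y, % per 2.5 tags per kb) by tag density (x, tags per kb of own peaks) in each library, with 24, 35, 82 and 75 regions above 180 tags per kb left out in T2D islets, control islets, T2D sperm and control sperm. The curve of the shared regions lies to the right of the others, at a median of 1389 bp, and both sperm curves lie to the right of the islet curves.

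Tag density was taken as the tags in a library's own peaks of a region per kb of those peaks. Its median was 49.2 tags per kb in T2D islets, 50.7 in control islets, 59.0 in T2D sperm and 59.4 in control sperm. From the 1st to the 99th percentile it ran from 27.0 to 111 in T2D islets, from 27.9 to 117 in control islets, from 31.4 to 131 in T2D sperm and from 31.0 to 135 in control sperm. The depth of the islet libraries is not stated, so the offset between tissues cannot be read as a difference in methylation. Other peaks of the same lists were sparser, with medians of 41.4 and 42.9 tags per kb in T2D and control islets and 46.6 and 46.2 in T2D and control sperm. The caller's enrichment over local background moved with this, at a median of 7.74 inside the regions against 6.93 outside in T2D islets, and 7.49 against 6.46 in control sperm. It did not follow density throughout. The 3 regions ranked first by density over all 4 libraries, given further on, lie under these medians. The next region in that order lies above them.

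Densities near the edge of the rule were lower than those of the regions as a whole. Of the regions, 8793 (13.5%) had a weakest score under 55, close to the lists' minimum. Their median density was 41.2 and 42.0 tags per kb in T2D and control islets and 50.8 and 50.3 in T2D and control sperm. Just outside were 49966 regions found in exactly 3 libraries. They had medians of 42.6 and 44.2 tags per kb in T2D and control islets and 50.3 and 49.5 in T2D and control sperm, over the libraries that had a peak there. The missing peak was that of T2D islets in 14743 of these regions, control islets in 14706, T2D sperm in 11209 and control sperm in 9308. Islet libraries, which had fewer tags in peaks, were thus missing more often than sperm libraries.

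Density changed little with width. Among the narrowest 25% of regions (364 to 1143 bp) the medians were 47.36 and 48.58 tags per kb in T2D and control islets and 56.99 and 57.26 in T2D and control sperm. Among the widest 25% (1824 to 7099 bp) they were 53.5 and 55.4 in islets and 63.8 and 64.3 in sperm. Across regions the correlation of log2 width with mean log2 density was 0.179.

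The ranking of regions by density was shared in part. Across the 65373 regions, Pearson's r of log2 density was 0.645 between T2D and control sperm and 0.607 between T2D and control islets. Between tissues it was 0.413 for T2D islets with T2D sperm, 0.446 for T2D islets with control sperm, 0.408 for control islets with T2D sperm and 0.442 for control islets with control sperm. Both islet libraries were thus closer to control sperm than to T2D sperm. These values share the region and its base composition and are a description across regions. The densest 1% of each library, 654 regions, overlapped by 232 (35.5%) between the sperm libraries, by 204 (31.2%) between the islet libraries, and by 93 to 109 between tissues. All 4 libraries had 30 of their densest 654 in common.

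Regions ranking high in every library were next ordered by their worst rank among the 4. The first, on chromosome 2 from 98506165 to 98508121 (mouse build mm9, as all positions here), held 1764 tags in T2D islets and 1756 in control islets, and 1421 in T2D sperm and 1418 in control sperm. This gave 1149 and 907 tags per kb in islets and 815 and 910 in sperm. A further region lay directly beside it, on chromosome 2 from 98501931 to 98506021, with 1778 and 2097 tags in T2D and control islets and 1236 and 1264 in T2D and control sperm. Between these in rank came chromosome 15 from 74915559 to 74917708, with 547 and 550 tags per kb in T2D and control islets and 469 and 463 in T2D and control sperm. Its peaks coincided the most of these 6 regions, with a core of 2042 of 2150 bp.

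Chromosome 9 from 35112224 to 35113588 followed, with 609 and 611 tags in T2D and control islets and 574 and 572 in T2D and control sperm. The first 3 of these regions had a low enrichment over local background by the authors' values. Among islet libraries it lay between 4.33 and 4.50 (T2D) and between 4.14 and 4.64 (control). Sperm gave 4.80 to 6.35 (T2D) and 4.71 to 6.16 (control), all under the medians over all regions. The region on chromosome 9 had 11.2 and 11.4 in T2D and control islets and 11.0 and 10.4 in T2D and control sperm. All 4 differed by under 1.5-fold in raw tags between the libraries of a tissue. The fifth, on chromosome 15 from 57251336 to 57252200, was the one among the 6 with lower values in islets past 2-fold in a tissue pair. It had 228 and 203 tags per kb in T2D and control islets, against 618 and 442 in T2D and control sperm. The sixth, on chromosome 9 from 105556924 to 105558068, had 171 and 186 tags per kb in T2D and control islets and 234 and 265 in T2D and control sperm. No gene or repeat annotation of build mm9 was used here, so what lies at these positions was not determined. The sperm lists were called without an input library.

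The widest regions were all denser than the median region in each library. Chromosome 13 from 38282849 to 38289947 spanned 7099 bp and held 431 and 437 tags in T2D and control islets and 492 and 560 in T2D and control sperm. Chromosome 12 from 111851014 to 111857498 spanned 6485 bp, with 335 and 488 tags in T2D and control islets and 224 and 383 in T2D and control sperm, so both T2D libraries had fewer. Per kb of peak it did not follow, since T2D and control islets had 111 and 95.3 tags per kb and T2D and control sperm 116 and 120. Chromosome 5 from 137465854 to 137472335 (6482 bp) was covered by 2 peaks in each library, with a core of 75.7% and densities of 70.9 and 74.7 tags per kb in T2D and control islets and 73.0 and 88.7 in T2D and control sperm.

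Neighbouring regions were a median of 17930 bp apart, with the middle 50% of gaps between 7384 and 38968 bp. Gaps under 5 kb made up 17.1% of all, gaps under 10 kb 32.4% and gaps over 100 kb 6.56%. Among all autosomal union regions, which are denser by number, the median gap was 3911 bp. To compare placement without this difference in number, the nearest neighbour of each region among all union regions was taken. It was again a region found in all 4 libraries for 24.0% of these regions, against 20.9% for regions found in exactly 3 libraries, 17.9% for those in both islet libraries only, 19.1% for those in both sperm libraries only and 20.3% over all union regions. A region found in all 4 libraries was thus the nearest neighbour slightly more often for these regions than for the other classes. For most of these regions, the nearest one was still a region found in fewer libraries. How often the other classes neighboured their own kind was not examined.

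In windows of 100 kb the mean was 2.71 regions and the median 2, with a variance of 1.89 times the mean. Of 24160 windows, 4657 (19.3%) held none, unsequenced gaps of the assembly included, and 113 held 10 or more. The richest window, on chromosome 16 from 92900001 to 93000000, held 13 of these regions among 21 union regions. Its regions had median densities of 54.1 and 47.7 tags per kb in T2D and control islets and 67.2 and 65.7 in T2D and control sperm. Another 8 windows held 12, of which the first 4 in genome order started at 99600001 on chromosome 1, at 34000001 on chromosome 2, and at 118200001 and 123000001 on chromosome 4. These 4 windows held 20 to 24 union regions each, the 12 included. The longest stretches without such a region were all on chromosome 7. The first, from 39083260 to 46701073, ran for 7.62 Mb and held 15 union regions found in fewer libraries. Most of its length was a gap without any union region, so no library had a peak there. The others ran from 7132246 to 10836337 and from 20614601 to 24098383.

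**Figure D2:**
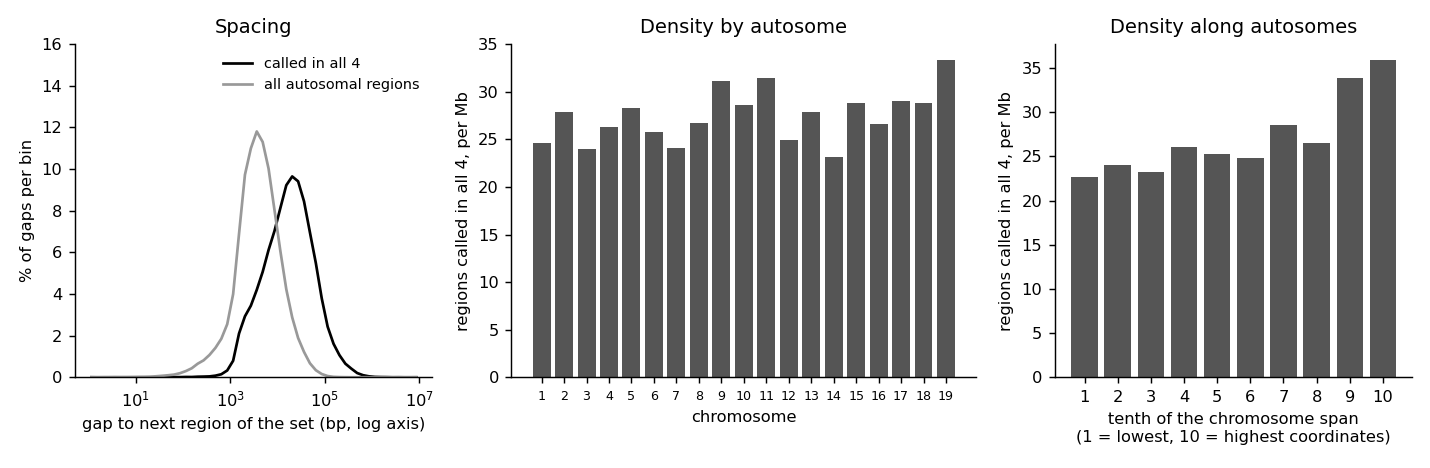
Left, share of gaps (y, % per bin) by gap length to the next region of the same set (x, bp, log axis) for regions called in all 4 libraries and for all autosomal union regions. Middle and right, number of regions called in all 4 libraries per Mb (y) by autosome and by segment of the chromosome span, 10 equal segments from lowest to highest coordinate (x). Chromosome 19 stands highest at 33.4 per Mb, and the last 2 segments at 33.8 and 35.9 per Mb.

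The chromosomes differed in how many of these regions they carried. Measured over the span from the first to the last peak, the density averaged 27.1 per Mb over the 19 autosomes. It was lowest on chromosome 14 (23.1 per Mb) and highest on chromosome 19 (33.4 per Mb). All union regions followed the same order closely, with a correlation of 0.979 across the 19 chromosomes. The share of union regions found in all 4 libraries accordingly varied little, from 21.0% on chromosome 3 to 23.1% on chromosome 19. Median width ran from 1345 bp on chromosome 16 to 1438 bp on chromosome 5, and median density in T2D islets from 47.8 tags per kb on chromosome 14 to 50.8 on chromosome 5. Control islets ran between the same chromosomes, from 49.2 to 51.8. In T2D sperm the range was 57.3 on chromosome 3 to 61.2 on chromosome 8, and in control sperm 57.6 on chromosome 3 to 61.4 on chromosome 19.

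Along the chromosomes, mouse autosomes having their centromere at the low-coordinate end, the regions became denser towards the distal end. With each span cut into 10 equal segments and summed over autosomes, segment 1 held 22.7 per Mb, segment 5 held 25.3, segment 9 held 33.8 and segment 10 held 35.9. Segment 10 was the richest on 9 of the 19 chromosomes and segment 9 on 5 more, and neither was the poorest on any. Union regions of all kinds were also more frequent there, at 156 per Mb in segment 10 against 109 in segment 1. The share found in all libraries was 23.1% in segment 10 and 20.8% in segment 1.

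Differences between conditions were graded around no change. For each tissue the log2 ratio of tag density, T2D over control, was taken per region and centred on its median over the regions, which was -0.04 in islets and below 0.01 in size in sperm. The ratio had an SD of 0.42 in islets and 0.40 in sperm. Counting error alone, from the tags behind each value, comes to an SD of 0.31 in islets and 0.26 in sperm, or 54.2% and 43.9% of the variance. Within 1.5-fold lay 84.5% of regions in islets and 86.3% in sperm. The rule requires a peak in every library, so regions where a library has no called peak do not enter. This partly limits the size of all differences given here.

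A 2-fold difference was reached by 1406 regions in islets (2.15%, interval 2.04% to 2.26%), against 1.89% of all 110491 autosomal regions with a peak in both islet libraries, the same regions included. T2D was higher in 659 of them, where the share over all regions was 0.917%, and lower in 747, where it was 0.973%. In sperm 1097 regions reached 2-fold (1.68%, interval 1.58% to 1.78%), against 1.49% of 122396. There T2D was higher in 542 (all regions 0.797%) and lower in 555 (all regions 0.698%). Both shares lie slightly above those over all regions, which fall below the intervals given. The background holds the same regions, so the shares are drawn together by construction. The directions were nearly balanced.

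In these condition differences both the tags and the called width of the peak differed. The median width differed by a larger factor than the median tags in each of the 4 sets, though by little in the regions denser in T2D islets. In the 659 regions denser in T2D islets, the T2D peak had a median of 608 bp and the control peak 964 bp, while the tags were a median of 51 and 33. In the 747 regions sparser in T2D islets, the T2D peak had a median of 1006 bp and the control peak 578 bp, with a median of 37 and 51 tags. The denser library had the narrower peak in 93.0% and 93.8% of these sets. In sperm the same held for 95.6% of regions denser in T2D and 94.2% of regions sparser in T2D. The 542 regions denser in T2D sperm had median peaks of 641.5 bp in T2D and 1096.5 bp in control, with 60 and 43 tags. The 555 sparser in T2D sperm had 1110 and 651 bp, with 46 and 64 tags. Tag ratios were centred on their median log2, 0 in islets and -0.01 in sperm. The tags differed in the same direction as the density in 87.9% and 82.5% of the islet sets and in 84.5% and 83.4% of the sperm sets. They differed by 2-fold in that direction in 95 (14.4%) and 79 (10.6%) of the islet sets and in 54 (9.96%) and 53 (9.55%) of the sperm sets. In 68 and 124 regions of the islet sets and 84 and 92 of the sperm sets, the tags differed the other way. Density is tags over width, so part of this relation is built in.

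Differences between tissues were larger and recurred. Depth and caller of the islet lists are not stated, so tissue and processing cannot be told apart in them. Islets over sperm was taken once between the T2D libraries and once between the control libraries, pairs that share no library, each centred on its median (-0.28 and -0.23) because islet depth is unknown. The log2 ratio had an SD of 0.50 in either pair, of which counting error made up 32.1% of the variance. In the T2D pair 3304 regions differed by 2-fold (5.05%, interval 4.89% to 5.22%; all 96155 regions with both peaks 4.51%). Islets were higher in 2162 (all regions 2.93%) and lower in 1142 (all regions 1.58%). In the control pair 3270 regions did so (5.00%, interval 4.84% to 5.17%; all 98152 regions 4.65%), with islets higher in 2063 (all regions 3.02%) and lower in 1207 (all regions 1.63%).

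In both pairs at once and in the same direction, 679 regions passed 2-fold, which is 1.04% of the 65373 and, since such a value needs all 4 libraries, has no wider background. Islets were higher in 535 and lower in 144, and 20 regions passed 2-fold in opposite directions. The 535 regions had medians of 83.3 and 88.1 tags per kb in T2D and control islets, against 39.7 and 41.0 in T2D and control sperm. The 144 regions had 37.4 and 38.6 in T2D and control islets, against 121 and 121 in T2D and control sperm. Here the tags carried more of the difference. In the T2D pair they differed in the same direction as the density in 99.6% of the first and 97.9% of the second set. They differed by 2-fold in that direction in 448 (83.7%) of the 535 and in 88 (61.1%) of the 144. These tag ratios were centred as well, on a median log2 of -0.463 in the T2D pair. This lowers the bar for islets above sperm and raises it for islets below, so the 2 shares are not alike. As counted, the median tags in T2D islets and T2D sperm were 90 and 39 in the 535, and 37 and 114.5 in the 144. The denser tissue had the narrower peak in 31.8% of the first and 63.2% of the second set.

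**Figure D3:**
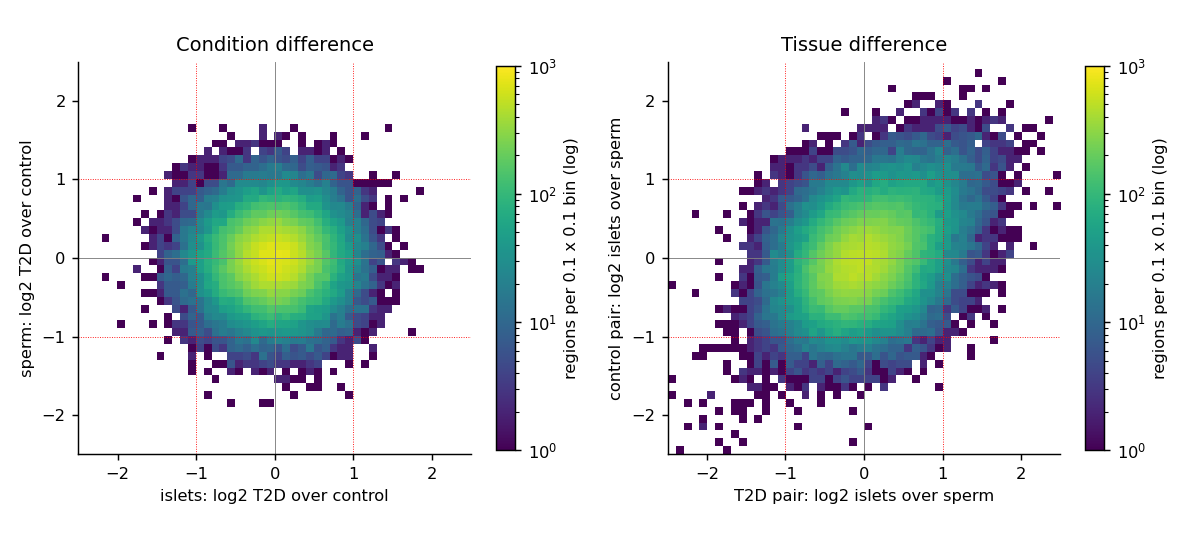
Log2 differences in tag density of the 65373 regions, as the number of regions per bin of 0.1 by 0.1 (colour, log scale), with dotted lines at 2-fold. Left, T2D over control in islets (x) and in sperm (y); right, islets over sperm in the T2D pair (x) and the control pair (y), with 16 regions beyond the axes left out. The left cloud is round, with r = 0.0026, and the right one is drawn out along the diagonal, with r = 0.348.

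Each kind of difference was then set against its counterpart. The counterparts are not alike: the tissue difference was taken between the same tissues in both pairs, whereas the condition difference was taken once in sperm of the founders themselves and once in islets of their offspring. The tissue difference of the T2D pair and that of the control pair correlated across regions with a Pearson's r of 0.348 and a Spearman's rho of 0.309. They had the same sign in 39503 regions (60.4%, interval 60.1% to 60.8%). Chromosome by chromosome, r lay between 0.313 on chromosome 1 and 0.387 on chromosome 10. The condition difference in islets of offspring and that in sperm of founders, which likewise share no library, had an r of 0.0026 and a rho of 0.0038. Their sign was the same in 32905 regions (50.3%, interval 49.95% to 50.72%), and r by chromosome lay between -0.052 on chromosome 1 and 0.034 on chromosome 13.

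At 1.5-fold in both tissues, 879 regions differed in the same direction between conditions and 892 in opposite directions. For the tissue difference the corresponding numbers were 4361 and 742. At 2-fold, 4 regions were higher and 12 lower in T2D in both islets and sperm, whereas 10 were higher in islets and lower in sperm and 15 the reverse. Counted on tags in place of density, 82 regions differed by 2-fold in the same direction in both tissues and 81 in opposite directions. All 4 differences stayed under 2-fold in 57971 regions (88.7%), a share that the need for a peak in every library partly sets.

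Regions with more tags gave the same picture with less error. Where the library with the fewest tags had 18 to 29, the SD of the condition difference was 0.46 in islets and 0.44 in sperm, and r was -0.01 for condition and 0.305 for tissue. Where it had 100 or more, in 3380 regions, the SDs were 0.29 and 0.29, with counting errors of 0.17 and 0.16. There r was 0.0008 for condition and 0.436 for tissue. Condition differences of 2-fold then remained in 4 of the 3380 regions in islets and 8 in sperm, against 57 for the T2D and 51 for the control tissue pair. The SD above counting error did not vanish in these well-covered regions. Counting error was taken from the tags alone, so variation in the called peak width also enters this SD. Across all regions the condition differences in density and in own-peak width had an r of -0.486 in islets and -0.516 in sperm. With 1 library per group, condition, animals, library preparation and peak calling cannot be told apart in it.

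**Figure D4:**
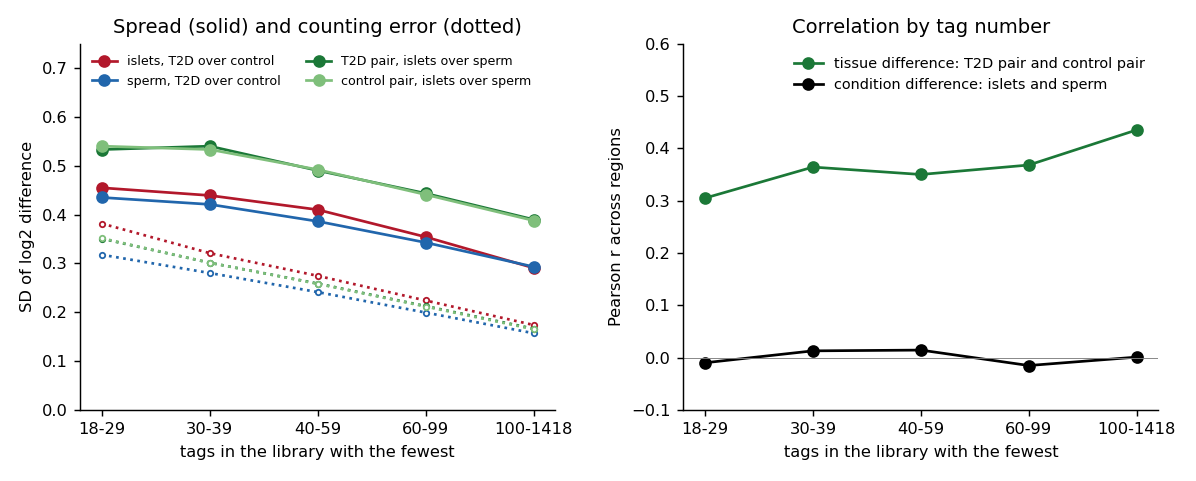
Regions are grouped by the tags of the library with the fewest (x). Left, SD of the log2 difference in tag density (y, solid) and the SD from counting error alone (dotted) for the 2 condition and 2 tissue differences; right, Pearson's r across regions (y) between the tissue differences of the T2D and control pairs and between the condition differences of islets and sperm. The tissue correlation lies between 0.305 and 0.436, and the condition correlation between -0.015 and 0.014.

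Peak width gave a weaker version of the same order. It is not independent of the tags, since the difference in width and that in tags correlated across regions with an r of 0.613 for condition in islets, 0.598 for condition in sperm and 0.641 for the T2D tissue pair. The own-peak width of islets over sperm correlated between the T2D and control pairs with an r of 0.187, and the condition differences of islets and sperm with an r of -0.0037. The tags correlated at 0.509 between the tissue pairs and at -0.0025 between the conditions. Called peaks in islets were narrower than in sperm, with a median width ratio of 0.905 in the T2D and 0.871 in the control pair. Depth and caller of the islet lists are not stated, so this offset cannot be read as a difference between tissues.

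Neighbouring regions were weakly correlated in tissue difference, with little dependence on how near they lay, and had r close to 0 in condition difference. For 6052 pairs of neighbours less than 3 kb apart, r between neighbours was 0.1071 and 0.1003 for the T2D and control tissue pair, and -0.001 and -0.008 for the condition difference in islets and sperm. For 17267 pairs 30 to 100 kb apart it was 0.0685 and 0.0743 for tissue, and 0.007 and 0.015 for condition. For 4288 pairs over 100 kb apart it was still 0.0818 and 0.0519 for tissue, with 0.0611 and 0.0783 at 10 to 30 kb. Neighbours share their libraries, so these are descriptions. Chromosome medians of the centred condition difference stayed between -0.02 and 0.02 in islets and between -0.02 and 0.01 in sperm.

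The regions named next were picked for the size of their difference, which is therefore given as a description. Each had at least 10 tags in every library, a condition that all 65373 regions met, the lowest value being 18. Ranking was by the smaller of the 2 log2 differences. Of the regions denser in sperm, the first lay on chromosome 16 from 56938460 to 56939548. It held 24 and 43 tags in T2D and control islets, against 452 and 428 in T2D and control sperm. Its density was 46.2 and 50.1 tags per kb in T2D and control islets, against 624 and 699 in T2D and control sperm. The centred log2 difference of islets over sperm was -3.48 in the T2D pair and -3.57 in the control pair, with counting errors of 0.30 and 0.23.

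The others had the same form, low and even in islets and high in both sperm libraries. Chromosome 13 from 97129332 to 97130218 had 24 and 27 tags in T2D and control islets, against 429 and 343 in T2D and control sperm. Chromosome 9 from 55621733 to 55622928 had 39 and 25 tags in T2D and control islets, against 393 and 384 in T2D and control sperm. On the same chromosome, the region from 88962602 to 88963390 had 24 and 19 in T2D and control islets, against 168 and 155 in T2D and control sperm. In each, both islet libraries lay below both sperm libraries, which the choice of regions by this difference favours. The last of the 6 were chromosome 3 from 74037092 to 74037918, with 25 and 20 tags in T2D and control islets against 296 and 229 in T2D and control sperm, and chromosome 16 from 97942345 to 97943998, with 27 and 24 against 298 and 295. Over the 6 the log2 difference lay between -3.48 and -2.36 in the T2D pair and between -3.57 and -2.40 in the control pair.

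Regions denser in islets past 2-fold in both pairs were more numerous, 535 against 144, but the first 6 differed less. At any size, 19751 regions were higher and 19752 lower in islets in both pairs. Chromosome 12 from 79451669 to 79452724 had 182 and 196 tags in T2D and control islets, against 35 and 53 in T2D and control sperm. This gave 275 and 307 tags per kb in T2D and control islets and 72.2 and 55.7 in T2D and control sperm, and log2 differences of 2.20 and 2.69 in the T2D and control pair. Chromosome 9 from 5616498 to 5618034 had 179 and 191 tags in T2D and control islets, against 54 and 49 in T2D and control sperm. Chromosome 14 from 7818200 to 7819243 had 100 and 74 in T2D and control islets, against 34 and 33 in T2D and control sperm. Chromosome 15 from 33761064 to 33761868 had 123 and 125 in T2D and control islets, against 31 and 29 in T2D and control sperm. Here both islet libraries lay above both sperm libraries in each region, which the choice by this difference again favours.

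Another pair, both on chromosome 5, carried a limit. From 150096409 to 150099902 the region had 209 and 221 tags in T2D and control islets and 98 and 45 in T2D and control sperm, but a core of 0 bp, so its islet and sperm peaks did not all cover a common base. From 134691461 to 134694722 it had 333 and 324 tags in T2D and control islets and 40 and 52 in T2D and control sperm, with a core of 74 bp in a width of 3262 bp. There the densities compare largely different stretches. Over the 6 the log2 difference ran from 1.76 to 2.20 in the T2D pair and from 1.77 to 2.70 in the control pair.

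**Figure D5:**
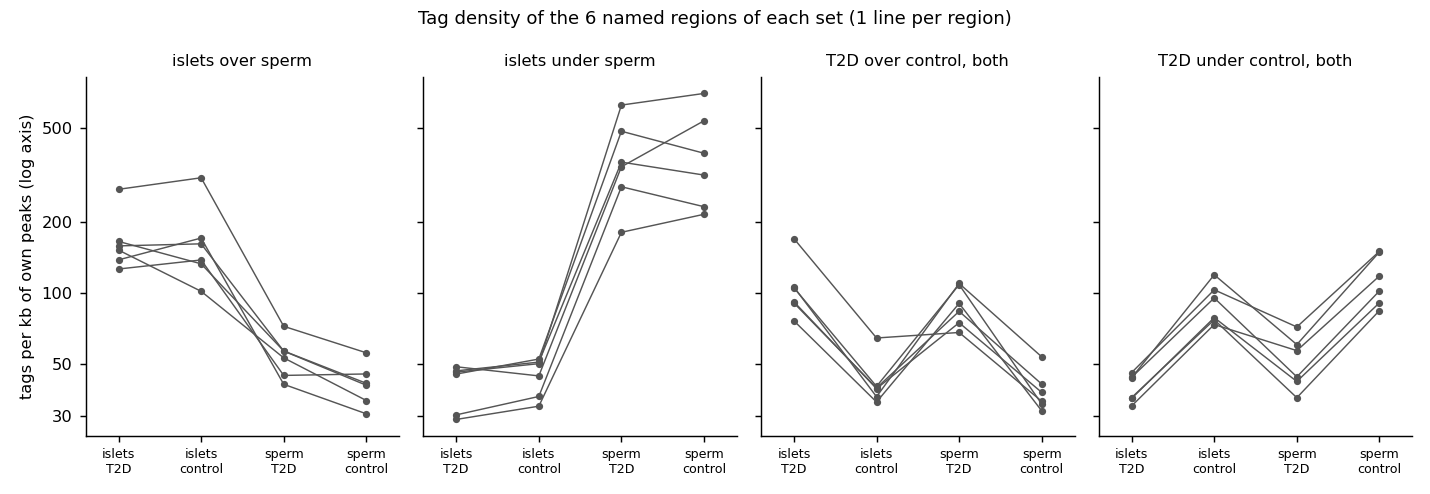
Tag density (y, tags per kb of own peaks, log axis) in the 4 libraries (x) for the 6 regions of each named set, 1 line per region. In the sets picked by tissue the islet values stand apart from the sperm values (for the regions lower in islets, 29.1 to 52.4 against 180 to 699 tags per kb), and in the sets picked by condition the 2 T2D values stand apart from the control value of the same tissue.

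Condition differences that ran the same way in both tissues were smaller. The first region higher in T2D lay on chromosome 13 from 112739485 to 112740281. It had 73 and 32 tags in T2D and control islets and 73 and 25 in T2D and control sperm. Its peaks were of similar width, 695 and 797 bp in T2D and control islets and 674 and 739 bp in T2D and control sperm, so the density of 105 against 40.2 tags per kb in T2D and control islets, and 108 against 33.8 in T2D and control sperm, came from the tags. The log2 difference was 1.43 in islets and 1.68 in sperm, with counting errors of 0.31 and 0.33. It was the 1 region of the 4 higher in T2D past 2-fold in both tissues in which tags also passed 2-fold in both.

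Elsewhere the widths entered. Chromosome 4 from 91059236 to 91060442 had 36 and 30 tags in T2D and control islets and 48 and 34 in T2D and control sperm, over peaks of 473 and 870 bp and of 532 and 1075 bp in that order. Chromosome 12 from 41282062 to 41283330 had 68 and 26 tags in T2D and control islets and 94 and 68 in T2D and control sperm. Also on chromosome 12, the region from 50209585 to 50210522 had 49 and 24 in T2D and control islets and 41 and 32 in T2D and control sperm. On chromosome 16 from 18465589 to 18466981 the tags of islets went against the density, with 46 in T2D and 53 in control islets at 91.6 and 39.3 tags per kb. The last, chromosome 2 from 177307141 to 177310153, had 473 and 194 tags in T2D and control islets and 96 and 34 in T2D and control sperm. Its tags passed 2-fold in both tissues, while its log2 difference in density was 1.44 in islets and 0.97 in sperm, just under 2-fold.

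Of the regions lower in T2D in both tissues, 1 of 12 past 2-fold also passed it in tags in both. This was chromosome 6 from 109665780 to 109666820, with 26 and 62 tags in T2D and control islets and 26 and 82 in T2D and control sperm. Its density was 36.0 against 76.9 tags per kb in T2D and control islets and 36.0 against 84.1 in T2D and control sperm. The log2 difference was -1.05 in islets and -1.22 in sperm, with counting errors of 0.34 and 0.32. First by rank stood chromosome 13 from 52170592 to 52172636, at -1.40 and -1.30. Its T2D libraries held more tags and not fewer, 78 and 62 in T2D and control islets and 121 and 87 in T2D and control sperm, spread over peaks of 1784 against 520 bp and 2004 against 584 bp.

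The other regions of this set were intermediate. They were chromosome 13 from 32553652 to 32554301 (with 19 and 34 tags in T2D and control islets, 26 and 51 in T2D and control sperm), and chromosome 19 from 11997839 to 11999084 (54 and 82 in T2D and control islets, 77 and 112 in T2D and control sperm). On chromosome 6 the regions from 91914437 to 91915491 and from 100942680 to 100943952 had 29 and 45, and 30 and 37 tags in T2D and control islets. In T2D and control sperm they had 45 and 55, and 51 and 64. The candidates for these sets were 16453 regions above and 16452 below in both tissues, next to 16233 and 16233 in which the tissues went opposite ways.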

How the data were processed

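Per the labels' protocols, libraries were amplified with 15 PCR cycles and selected at about 250 bp. CASAVA 1.4 and the mouse build mm9 stand in the submitters' processing notes. MACS made the sperm lists, per the file headers, from 49 bp tags with no control file, a p-value limit of 1.00e-05 and with at most 2 tags kept per position. The islet lists carry no such header, and what called them is not stated. The authors deposited per peak the position, the whole-number count of tags (not scaled to depth), a score (10 times the p-value's negative log10) and a ratio, the fold enrichment over the library's local background.

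From these, peaks were merged (start counted from 1), and tags and peak lengths were summed per region and library with numpy 2.4.6 and pandas 2.3.3; Wilson intervals came from scipy 1.17.1. Counting errors are the square root of the summed reciprocal tag counts, on the log2 scale. Steps were tested on simulated lists. The regions, measures and rules were chosen with earlier results of these data known. Named were the 6 regions with the best worst rank in density, the 3 widest, the 6 with the greatest difference in each direction between tissues and between conditions (by the smaller of both values), 3 for each opposite direction, and the 5 richest windows of 100 kb. Sensitivity to 41 alternatives is given at the end, and no gene or sequence is reported, since no annotation of build mm9 was used. Groups come from the sample titles, and 1 library per group allowed no test.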

Additional observations from a re-analysis of the deposited data

Results flagged for a closer look

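Some values moved in opposite directions between conditions in islets and in sperm, where each tissue had 1 library per condition, so the difference between tissues was not tested. The median width of a library's own peaks in the shared regions, T2D minus control, was 37 bp in islets and -7 bp in sperm. The median number of tags per region differed by 1 in islets and by -1 in sperm. The share of autosomal peak tags that lay in these regions differed by 0.355 percentage points in islets and by -0.484 in sperm.

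Among named regions, 6 were picked because their density differed in opposite directions. T2D was higher in islets and lower in sperm on chromosome 14 from 82119432 (log2 difference 1.27 in islets and -1.26 in sperm), chromosome 3 from 100413010 (1.22 and -1.19) and chromosome 13 from 100407462 (1.21 and -1.12). The reverse held on chromosome 14 from 23270036 (-1.29 in islets and 1.14 in sperm), chromosome 15 from 39855254 (-1.14 and 1.13) and chromosome 13 from 96461600 (-1.11 and 1.18). None of the 6 reached 2-fold in islet tags, which in T2D and control islets were 58 and 37, 70 and 46, 34 and 25, 28 and 40, 28 and 32, and 37 and 45 in the order above. The called peaks differed in width, from 509 against 759 bp in T2D and control islets in the first to 1184 against 648 bp in the last. In T2D and control sperm the tags were 73 and 90, 37 and 73, 40 and 50, 50 and 40, 43 and 27, and 83 and 37.

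Outside the autosomes, 539 regions on X and 4 on Y also had a peak in each library, out of 5578 and 59 union regions. The share on X was 9.66%, against 21.7% on autosomes. Median density on X was 46.5 and 47.0 tags per kb in T2D and control islets and 46.1 and 45.5 in T2D and control sperm. The sex of the offspring is not given, and its part in these values was not tested.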

How the results depend on the processing

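Of 41 alternative values for 6 results, 23 stayed close to the reported one. Close was loosely set, since 47235 regions in place of 65373 still counted. A count cannot reverse, so only the correlations could change sign. That of tissue differences stayed positive. That of condition differences took either sign near 0, between -0.0068 and 0.0038. Leaving out the centring cannot change a correlation, so its unchanged values there are no check. The values that moved follow. The number of regions (65373) became 23754 with the best 50% of each list by score and 15163 with a score of at least 100, as fewer peaks entered. The 1406 regions past 2-fold between conditions in islets became 2506 per kb of region width, 230 of 22360 (1.03%, against 2.15%) with at least 50 tags in every library, 203 by the authors' fold enrichment and 644 of 47235 (1.36%) where peaks of every library covered at least 50% of the region. In sperm 1097 (1.68%) became 1840, 158 (0.707%), 118 and 554 (1.17%) in that order. Under the first 3 of these settings, the 679 regions past 2-fold in both tissue pairs became 2591, 119 and 81. The correlation of condition differences became -0.0068 by enrichment. That of tissue differences became 0.509 per kb of region width, 0.368 with at least 50 tags, 0.274 by enrichment and 0.396 with at least 50% covered. The higher minimum of tags and the coverage limit leave fewer regions, but the shares fell too, and the cause was not tested. Depth and caller of the islet lists are not stated, and the sperm lists had no input library. With 1 library per group, each comparison is limited.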
